A study of Mus musculus with 405 samples.

Results

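The chemicals described here are 7 pesticides and biocides that react with thiols: captan, folpet, captafol, chlorothalonil, anilazine, dazomet and 3-Iodo-2-propynylbutylcarbamate (IPBC, a preservative). Their libraries were chosen by column title from a screen table of 393 libraries. This gave 8 libraries of 7 chemicals, out of 297 chemicals in all, and they were compared with the 49 vehicle libraries of the same table. Chlorothalonil had 2 libraries and each of the other 6 chemicals had 1. Tolylfluanid, which was also looked for by name, is not analysed here.

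The series asked how single environmental chemicals change gene expression in cultured mouse cortical neurons. Cultures came from hybrid embryos at embryonic day 15, from C57BL/6J dams mated with CAST/EiJ males, and every group used here, vehicle included, shared that cross and an antimitotic added to the medium. A chemical or its vehicle (dimethyl sulfoxide, per the study's methods) was applied at 7 days in vitro for 24 hours, and polyA RNA was sequenced. Captan, folpet and anilazine were given at 10 µM, and captafol, chlorothalonil, dazomet and IPBC at 1 µM, doses that the labels call non-cytotoxic. Nothing in the labels says that libraries of 1 group came from separate cultures, so the p-values below measure the spread between libraries, which may be technical. A lone library was assumed to vary as the vehicle libraries did.

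Thiol-reactive fungicides are electrophiles: they bond to the sulphur of cysteine side chains and of glutathione, the main small thiol of the cell. Several cell sensors work through such cysteines. KEAP1 holds the transcription factor NRF2 in check until its cysteines are modified, and NRF2 then turns on genes for glutathione supply, thioredoxin recycling and haem breakdown. Damaged proteins release the heat shock factor HSF1, which turns on chaperones, while proteasomes and the autophagy receptor p62 (Sqstm1) clear what cannot be refolded. Captan and folpet carry the same trichloromethylthio group on an imide nitrogen and differ in their ring system. Captafol has captan's ring with a tetrachloroethylthio chain. Chlorothalonil is a chlorinated aromatic dinitrile, anilazine a chlorinated triazine, dazomet a compound that releases methyl isothiocyanate, and IPBC an iodopropargyl carbamate.

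Each value is a deviation on the log2 scale, centred per gene by the authors and freed by them of culture and sequencing batch effects, so that a value of 1 is a 2-fold rise over the gene's centre and no absolute level can be read. The number of reads behind a value is unknown. The SD over the genes of a library was 0.35 to 0.43 in the 8 exposed libraries and 0.27 to 0.52 in the vehicle libraries. Deep negative values were common in vehicle libraries too: a median of 37 genes per vehicle library (range 7 to 64) lay below -2, against a median of 3 (0 to 21) above 2. All 12 neuron markers and all 35 synaptic genes of the lists were among the 13304 genes of the table, with 10 of 12 astrocyte and 6 of 12 microglia markers, so RNA of genes known from other brain cells was read as well. In such bulk RNA, fewer cells of a type and less RNA per cell cannot be told apart.

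Chlorothalonil changed more genes than the other 6 chemicals. At an adjusted p below 0.05 (limma, Benjamini-Hochberg over all genes), 132 genes differed from vehicle, 0.992% of the 13304 tested: 75 were higher (0.564%) and 57 lower (0.428%). Anilazine gave 32 genes (0.241%), of which 31 were lower (0.233%), and folpet 12 (0.0902%), of which 11 were lower (0.0827%). Dazomet gave 4 genes (0.0301%) and captan 2 (0.0150%), all lower. Captafol and IPBC gave 0 by limma, with 357 and 389 genes at an unadjusted p below 0.05. Chlorothalonil also had 2 libraries where the others had 1, which makes its errors smaller, so the counts are not on an equal footing. At an unadjusted p below 0.05, chlorothalonil had 1472 genes, 11.1% of those tested. With 1 chlorothalonil library, the count was 77 genes without library 1 and 37 without library 2, of which 48 and 20 were among the 132.

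**Figure D1:**
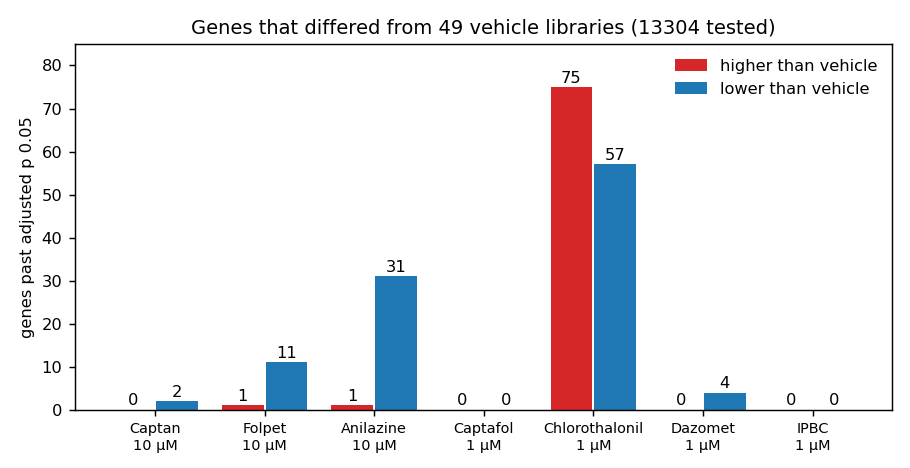
Bars give the number of genes higher (red) or lower (blue) than the 49 vehicle libraries at an adjusted p below 0.05, for each chemical with its dose, on an axis that starts at 0. Chlorothalonil has 75 higher and 57 lower genes, while the calls of anilazine (1 and 31) and folpet (1 and 11) are nearly all falls.

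The 132 genes were called on the mean of the 2 chlorothalonil libraries, so that agreement between the libraries over these genes is largely fixed by the choice and is given as a description. Of the 132 genes, 131 deviated from the vehicle mean in the same direction in both libraries, and 62 of the 75 higher genes lay above all 49 vehicle libraries in both. Among the 57 lower genes, 29 lay below all vehicle libraries in both. Over all 13304 genes, Spearman's rho between the 2 libraries was 0.169, and over the 5121 genes of larger spread it was 0.115. The median difference from vehicle was 0.53 for the higher genes and -0.81 for the lower ones. Against the other 290 chemicals of the screen, as the median of its libraries, chlorothalonil was the highest of 297 for 41 of the 75 higher genes. It was the lowest for 8 of the 57 lower genes. These ranks are also favoured by the choice of the genes, and the matching share over all genes is not given.

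**Figure D2:**
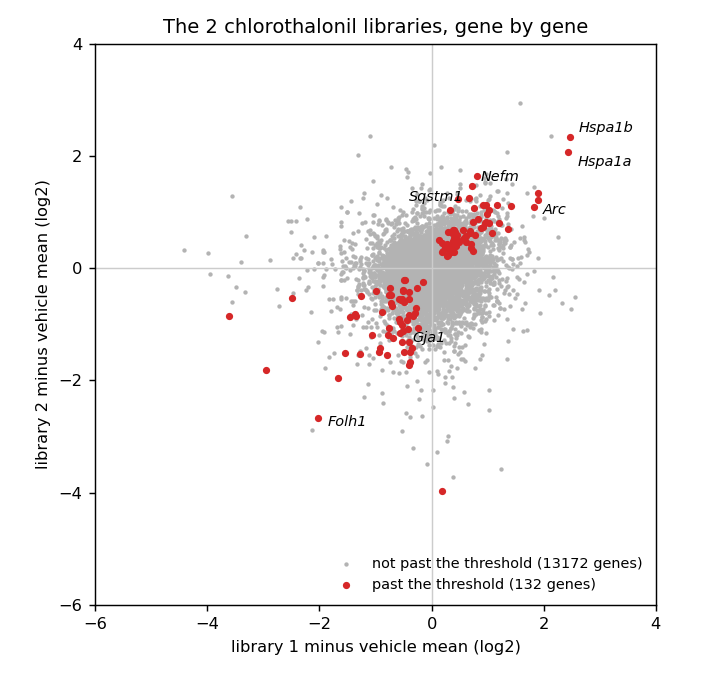
Each point is 1 of the 13304 genes, with its difference from the vehicle mean (log2) in chlorothalonil library 1 on the horizontal axis and in library 2 on the vertical axis, and red points are the 132 genes past the threshold. Red points lie to the upper right and lower left, with Hspa1a and Hspa1b farthest to the upper right and 1 red point (Olfml1) near 0 in library 1.

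The highest rises under chlorothalonil were in the inducible HSP70 genes, which encode the chaperone made in response to misfolded protein. Hspa1b (mm9, chr17:35093381-35096183, minus strand) stood at 2.27 and 2.15 in the chlorothalonil libraries, where the vehicle libraries ran from -2.05 through a median of -0.22 to 0.72. The other 6 libraries lay between -0.18 and 0.49, inside the vehicle range. The rise in Hspa1b was 2.40 ± 0.34 (SE; 5.29-fold, adjusted p = 5.8e-06). Hspa1a (chr17:35106144-35109069, minus strand) stood at 2.10 and 1.74, against -1.35 to 0.82 in vehicle, a rise of 2.26 ± 0.31 (adjusted p = 3.62e-06). These neighbouring genes are near-identical copies, and the counting could have split shared reads between them, so their separate values are uncertain. Both passed with each library alone, and both were the highest of all 297 chemicals.

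The heat shock list held 25 measured genes, and 6 of them rose, beside 0.564% of all genes: Hspa1a, Hspa1b, Hsph1, Hsp90aa1, Hsp90ab1 and Dnajb1. The list's median difference from vehicle was 0.27, against a median near 0 over all genes, and 22 of 25 members lay above vehicle. Hsp90aa1, the inducible HSP90, stood at 0.38 and 0.42 against a vehicle range of -0.23 to 0.21, a rise of 0.39 ± 0.06 (adjusted p = 3.49e-05) that held with each library alone. Hsph1, the HSP110 exchange factor, rose by 0.57 ± 0.11 (adjusted p = 1.17e-03), with 0.79 and 0.52 in the libraries and a vehicle maximum of 0.36. Dnajb1, an HSP40 that feeds substrates to HSP70, stood at 0.80 and 0.36 against a vehicle maximum of 0.32. Hsph1, Dnajb1 and Hsp90ab1 lost their calls without library 1, with differences of 0.43, 0.30 and 0.21 (adjusted p = 0.249, 0.632 and 0.189), and Hsp90ab1 also without library 2 (0.28, adjusted p = 0.0558). Bag3, an HSP70 co-chaperone, was at 0.72 and 0.76 within a vehicle range of -1.37 to 1.03 and missed the threshold (adjusted p = 0.264).

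The promoter windows of the HSP70 pair are shown because these genes rose most and because their sequences show how alike they are. Over the 250 bases before the gene start, 247 of 250 bases were identical (RefSeq, GRCm38.p6, minus strand; Hspa1a at chr17:34972157-34972406 and Hspa1b at chr17:34959239-34959488). Capitals mark the letters GAANNTTC, a facing pair of the unit that HSF1 binds, which is its own reverse complement and begins 104 bases before the start in both.
Hspa1a: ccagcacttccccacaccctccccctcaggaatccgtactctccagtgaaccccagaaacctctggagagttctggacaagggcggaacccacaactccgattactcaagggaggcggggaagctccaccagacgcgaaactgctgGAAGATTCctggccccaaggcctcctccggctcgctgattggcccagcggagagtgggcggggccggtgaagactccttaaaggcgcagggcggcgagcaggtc
Hspa1b: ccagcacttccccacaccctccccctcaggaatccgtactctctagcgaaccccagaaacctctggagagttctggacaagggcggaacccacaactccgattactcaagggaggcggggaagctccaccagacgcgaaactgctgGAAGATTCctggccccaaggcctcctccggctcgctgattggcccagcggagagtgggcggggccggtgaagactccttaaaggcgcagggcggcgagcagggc
These letters were in 6.69% of all 32851 promoter windows of that length, in 4.92% of those of the genes in the table, in 4 of the 73 windows (5.48%) of the 57 rising genes that had an entry and in 2 of the 48 windows (4.17%) of falling genes.

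NRF2 targets were the next group. Of 33 measured targets, 5 rose under chlorothalonil, beside 0.564% of all genes, and 0 fell. Those that rose were Sqstm1, Srxn1, Txnrd1, Prdx1 and Hmox1. The list's median was 0.35, and 28 of 33 members lay above vehicle. In the list medians by library, chlorothalonil stood at 0.42 and 0.25, above the vehicle maximum of 0.14, while the other 6 libraries lay between -0.06 and 0.12. Gstm1, also on the list, stood at 0.08 and -0.90 in the chlorothalonil libraries, against a vehicle minimum of -0.78. Nfe2l2, the gene of NRF2 itself, stood at 0.05 and -0.93 against a vehicle minimum of -0.73. Neither was called.

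Sqstm1 (mm9, chr11:50012868-50024329, minus strand), the autophagy receptor p62 that also binds KEAP1, had the smallest p of the 13304 genes of the chlorothalonil comparison. It stood at 0.72 and 1.03 in the chlorothalonil libraries, where the 49 vehicle libraries ran from -0.35 through -0.03 to 0.20. The remaining values were -0.0044 for captan, 0.16 for folpet, 0.13 for anilazine, 0.09 for captafol, 0.16 for dazomet and 0.14 for IPBC, all inside the vehicle range. The rise in Sqstm1 was 0.91 ± 0.09 (1.88-fold, adjusted p = 1.92e-10), and it was 0.75 and 1.07 with a single library, both past the threshold. No other chemical of the 297 had a higher value.

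Srxn1 (chr2:151931252-151937112, plus strand), sulfiredoxin, repairs over-oxidised peroxiredoxins. It stood at 1.01 in both chlorothalonil libraries, against -0.49 to 0.27 in vehicle, a rise of 1.03 ± 0.11 (adjusted p = 1.82e-08) that passed with each library alone. Srxn1 in captafol (0.35) and IPBC (0.33) also lay above all vehicle libraries, but neither passed the threshold (adjusted p = 1.0 and 0.999, unadjusted 0.0229 and 0.0331). Anilazine was at -0.42, within the vehicle range. Chlorothalonil ranked 13 of 297 chemicals for Srxn1, so other chemicals of the screen had higher values.

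The remaining 3 targets also handle peroxide, thioredoxin and haem, and each lay above all vehicle libraries in both chlorothalonil libraries. Txnrd1, the cytosolic thioredoxin reductase, stood at 0.47 and 0.45 against a vehicle maximum of 0.27, a rise of 0.48 ± 0.10 (adjusted p = 4.62e-03), with 0.46 and 0.49 from a single library (adjusted p = 0.146 and 0.136). Prdx1, a peroxiredoxin, stood at 0.89 and 0.73 against a vehicle maximum of 0.41, a rise of 0.80 ± 0.15 (adjusted p = 6.97e-04), with adjusted p = 0.0974 without library 1. Hmox1, haem oxygenase, stood at 1.11 and 1.06 against a vehicle maximum of 0.61, a rise of 1.15 ± 0.23 (adjusted p = 2.15e-03). Of 297 chemicals, chlorothalonil ranked 23 from the top for Hmox1, 15 for Txnrd1 and 2 for Prdx1. Without library 1 or library 2, the Hmox1 rise was 1.13 or 1.17 and its adjusted p 0.0994 or 0.105.

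The genes of glutathione supply did not pass the threshold. Gclm and Gclc encode the subunits of the rate-limiting ligase, and Slc7a11 imports cystine. Gclm was at 0.20 and 0.15, a difference of 0.24 ± 0.14 (95% interval -0.03 to 0.52 by limma), Gclc differed by 0.12 ± 0.16 and Slc7a11 by 0.24 ± 0.16, all with values inside the vehicle range. Nqo1, a quinone reductase, was at 0.98 and 0.28 in a vehicle range of -4.25 to 1.18. Among 30 thiol redox enzymes outside the NRF2 list, 0 passed by limma and 3 had an unadjusted p below 0.05, a share near the 11.1% of all genes, with a median of 0.10. Bach1, which represses some NRF2 targets, was the 1 regulator of 10 that rose, beside 0.564% of all genes. Its rise was 0.45 ± 0.11 (adjusted p = 0.0238), with 0.40 and 0.42 against a vehicle maximum of 0.35. It missed the threshold with either library alone (0.46 and 0.44).

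Promoter windows of Prdx1 (chr4:116685349-116685598, plus strand) and of 1 start of Txnrd1 (chr10:82858956-82859205, plus strand) are shown as examples of rising targets that hold the letters TGACNNNGC, the core that NRF2 dimers bind, here on the reverse strand. Capitals mark it.
Prdx1: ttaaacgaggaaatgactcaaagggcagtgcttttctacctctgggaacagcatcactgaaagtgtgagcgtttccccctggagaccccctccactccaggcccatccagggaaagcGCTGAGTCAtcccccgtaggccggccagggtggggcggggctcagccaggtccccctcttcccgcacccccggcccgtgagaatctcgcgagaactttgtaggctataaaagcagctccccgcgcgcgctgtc
Txnrd1: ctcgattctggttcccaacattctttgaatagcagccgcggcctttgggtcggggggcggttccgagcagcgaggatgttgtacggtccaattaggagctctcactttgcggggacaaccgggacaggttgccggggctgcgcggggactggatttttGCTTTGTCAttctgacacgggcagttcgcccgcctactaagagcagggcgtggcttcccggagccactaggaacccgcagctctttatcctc
On either strand, these letters were in 12 of the 73 windows of rising genes (16.4%), in 2 of the 48 windows of falling genes (4.17%), in 10.2% of all windows and in 11.6% of those of the genes in the table. Of the rising NRF2 targets, Sqstm1, Srxn1 and Hmox1 were not found with these letters, and Hmox1 had no promoter entry. The heat shock genes Dnajb1 and Hsph1 held them. The match is a description of letters and does not show binding.

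**Figure D3:**
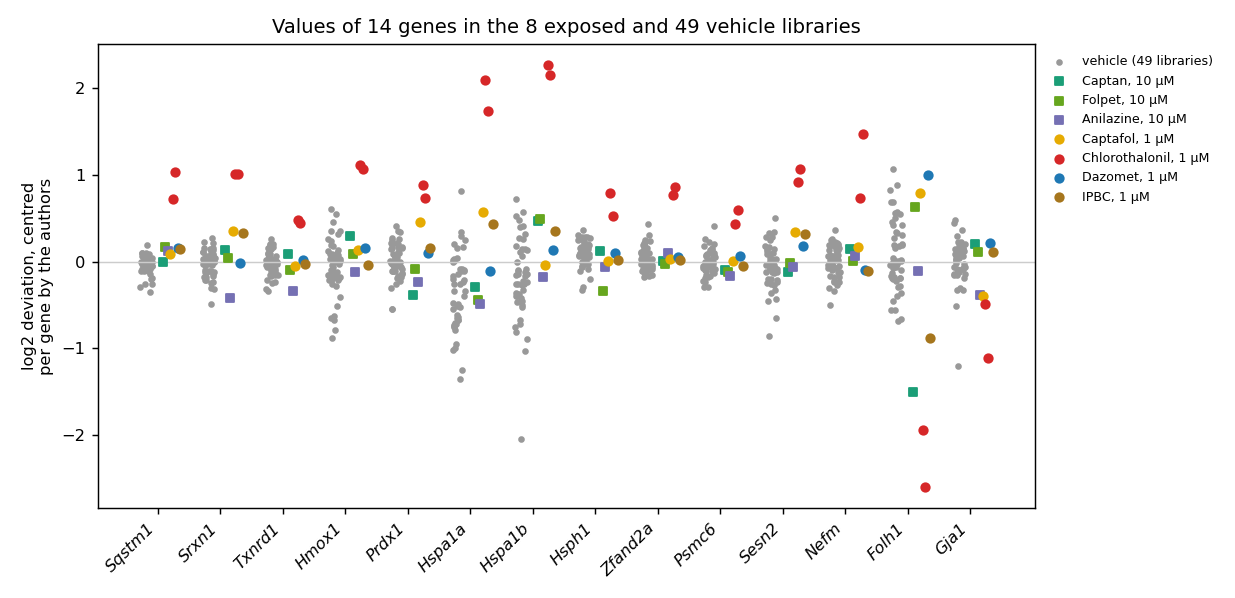
Each grey point is 1 of the 49 vehicle libraries and each coloured point 1 of the 8 exposed libraries (squares 10 µM, circles 1 µM), for 14 genes, on the log2 scale centred per gene. The 2 chlorothalonil libraries lie above all vehicle libraries for the first 12 genes, from Sqstm1 to Nefm, and the other chemicals lie mostly within the vehicle spread.

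Genes of protein clearance rose as well. All 31 measured proteasome subunits lay above vehicle under chlorothalonil, with a median of 0.40, against a median near 0 over all genes. Of these, 4 passed the threshold, beside 0.564% of all genes that rose: Psmc6, Psmd2, Psmd3 and Psmb4. Psmc6, an ATPase of the regulatory particle, stood at 0.44 and 0.59 against -0.29 to 0.41 in vehicle, a rise of 0.52 ± 0.10 (adjusted p = 2.69e-03). Without library 2 the Psmc6 rise was 0.45 (adjusted p = 0.236), and with either library alone Psmd2 (0.39 and 0.53), Psmd3 (0.44 and 0.50) and Psmb4 (0.59 and 0.57) missed the threshold. The median over the subunits was 0.37 in both chlorothalonil libraries, 0.21 in anilazine, 0.13 in captan and 0.02 to 0.07 in the other 4, with a vehicle range of -0.30 to 0.15.

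Further rises were picked out after their values were seen, as the genes that also differed from the other 290 chemicals. That comparison called 13 genes, all higher under chlorothalonil (0.0977%), among them Hspa1a, Hspa1b, Hsp90aa1, Sqstm1, Nefm, Zfand2a, Gabarapl1, Atg14, Csnk1d, Pgrmc1, Spty2d1 and A230070E04Rik. All 13 were also called higher than vehicle. The way these genes were picked favours a high rank among the 297 chemicals. Zfand2a, an arsenite-inducible protein that associates with the proteasome, stood at 0.76 and 0.86 against a vehicle maximum of 0.43, a rise of 0.78 ± 0.10 (adjusted p = 6.79e-07). Chlorothalonil had the highest Zfand2a value of the 297 chemicals, and the rise passed with each library alone, as did that of Csnk1d, a casein kinase. Pgrmc1 (0.37) and A230070E04Rik (0.67) missed the threshold without library 2, and Spty2d1 (0.81) without library 1.

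In the same group were 2 genes of autophagy and a neurofilament. Gabarapl1, a member of the family that decorates autophagosomes, stood at 0.35 and 0.65 against a vehicle maximum of 0.22, a rise of 0.52 ± 0.08 (adjusted p = 1.32e-05). Atg14, a subunit of the lipid kinase that starts autophagosomes, stood at 0.98 and 0.76 against a vehicle maximum of 0.47, with a folpet value of 0.63 also above it. Gabarapl1 missed the threshold without library 2 (0.37, adjusted p = 0.118) and Atg14 without library 1 (0.80, adjusted p = 0.101). Nefm, the medium neurofilament subunit, stood at 0.73 and 1.48 against a vehicle maximum of 0.37, a rise of 1.09 ± 0.14 (adjusted p = 1.17e-06). With library 1 alone the Nefm rise was 0.72 (adjusted p = 0.0726). It was the 1 neuron marker of 12 that passed, beside 0.992% of all genes, and the median of that list was 0.02.

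Stress-response and activity genes rose in part. In the ATF4 list, 3 of 33 members rose (Sesn2, Ppp1r15a and Nars), beside 0.564% of all genes, and the list median was 0.31. Sesn2, sestrin 2, which is also listed as a p53 target, stood at 0.92 and 1.07 against a vehicle maximum of 0.50, a rise of 1.05 ± 0.18 (adjusted p = 1.92e-04), and 0.97 with library 1 alone (adjusted p = 0.0692). Without library 2, Ppp1r15a, a phosphatase subunit that restores translation, differed by 0.46 and Nars, a tRNA synthetase, by 0.24, neither past the threshold, and Nars also missed it without library 1 (0.38). Among 24 p53 targets, Sesn2, Bbc3 and Mdm2 rose, beside 0.564% of all genes, with Sesn2 counted in both lists. The p53 list median was 0.25 in library 1 and -0.03 in library 2. Bbc3, a trigger of apoptosis, and Mdm2, the ligase that degrades p53, missed the threshold without library 1 (0.74 and 0.46) and without library 2 (0.91 and 0.61). Of 20 genes of the ER unfolded protein response, 0 passed by limma and 6 had an unadjusted p below 0.05, beside 11.1% of all genes, with a median of -0.02.

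Immediate early genes are the fast targets of neuronal activity and of kinase signalling. Of 30 such genes, 5 rose, beside 0.564% of all genes: Egr1, Nptx2, Jun, Gadd45b and Arc. Arc, a synaptic protein made on activity, stood at 1.78 and 1.05 against a vehicle maximum of 0.89, a rise of 1.45 ± 0.37 (adjusted p = 0.0308). With 1 library left out, the Arc rise was 1.09 or 1.82 with adjusted p = 0.603 or 0.123. Gadd45g and Gadd45b, growth-arrest genes, were among the 5 largest rises. Gadd45g rose by 1.62 ± 0.27 (adjusted p = 1.92e-04) and Gadd45b by 1.56 ± 0.37 (adjusted p = 0.0171). Without library 1, Gadd45g (1.35), Gadd45b (1.21), Egr1 (0.70) and Jun (0.36) missed the threshold, and without library 2, Gadd45b (1.90), Nptx2 (0.81) and Jun (0.70). Fos, the classic member, was at 0.21 and 1.85 in a vehicle range of -1.71 to 2.52. The list median of 0.35 and 0.41 in the chlorothalonil libraries lay inside the vehicle range of -0.48 to 0.97.

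Genes that fell under chlorothalonil included markers of other cell types. Folh1 (mm9, chr7:93867862-93924374, minus strand), the peptidase that cleaves the neuropeptide N-acetylaspartylglutamate, stood at -1.94 and -2.60, where vehicle ran from -0.68 through 0.01 to 1.07. Captan was also low, at -1.50, and IPBC at -0.88, both below all vehicle libraries. The fall under chlorothalonil was -2.35 ± 0.29 (adjusted p = 4.96e-07) and passed with each library alone. Prim1, the DNA primase subunit, was at -2.93 and -1.80 against a vehicle minimum of -1.63, and Knstrn, a spindle protein, at -1.61 and -1.89 against -1.22. Prim1 missed the threshold without library 1 (-1.81, adjusted p = 0.222) and Knstrn with either library alone (-1.95 and -1.67, adjusted p = 0.100 and 0.244). Olfml1, an extracellular protein, stood at 0.25 and -3.90, and without library 2 its difference was 0.18. The transcript C630031E19Rik went the other way, with -3.49 and -0.75, and without library 1 its difference was -0.86 (adjusted p = 0.965).

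Of 10 measured astrocyte markers, 3 fell (Slc1a3, Gja1 and Atp1b2), beside 0.428% of all genes, and the list median was -0.42. Atp1b2, a sodium pump subunit, stood at -0.47 and -0.49 against a vehicle minimum of -0.42, a fall of -0.41 ± 0.08 (adjusted p = 2.15e-03), with -0.42 and -0.40 from a single library (adjusted p = 0.0802 and 0.125). Gja1, connexin 43, stood at -0.49 and -1.11, with a vehicle minimum of -1.20, and its difference was -0.50 without library 2 (adjusted p = 0.585). Slc1a3, a glial glutamate transporter, stood at -0.23 and -1.06, with -0.25 without library 2 (adjusted p = 0.805). The astrocyte list median was -0.16 in library 1 and -0.79 in library 2, where vehicle ran from -0.75 to 0.38.

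Of 17 genes of smooth muscle and the actin cytoskeleton, 3 fell, beside 0.428% of all genes: Flna, Ctgf and Thbs1. Flna, filamin A, stood at -0.60 and -0.56 against a vehicle minimum of -0.37, a fall of -0.56 ± 0.12 (adjusted p = 3.91e-03). Ctgf, a matricellular growth factor, stood at -0.45 and -0.92 against a vehicle minimum of -0.38. Flna missed the threshold with either library alone (-0.54 and -0.58), and Ctgf (-0.54) and Thbs1 (-0.57) without library 2. The medians of the 6 endothelial and mural markers (-0.38 and -0.68) and of the 13 proliferation markers (-0.29 and -0.52) were low in both libraries and inside the vehicle ranges, with 0 of either list called by limma and 2 and 5 at an unadjusted p below 0.05, beside 11.1% of all genes. Microglia markers went opposite ways, with a list median of 1.24 in library 1, above the vehicle maximum of 0.71, and -0.44 in library 2. The marker lists thus did not all move in the same way in the 2 chlorothalonil libraries. Their part in the stress-gene results above was not tested.

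**Figure D4:**
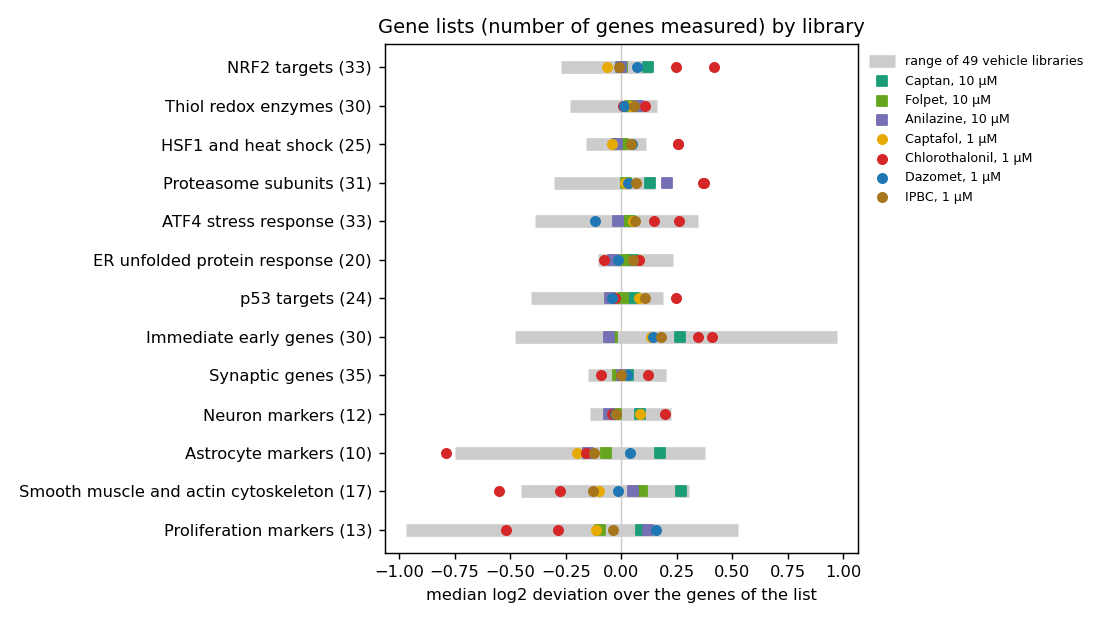
For 13 gene lists, each coloured point is the median log2 value over the list's genes in 1 of the 8 exposed libraries (squares 10 µM, circles 1 µM), and the grey bar is the range over the 49 vehicle libraries. Both chlorothalonil points lie to the right of the grey bar for NRF2 targets, the heat shock list and proteasome subunits, while the other 6 libraries lie within it apart from anilazine in the proteasome list.

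With the other 6 chemicals, no member of a list passed. In the 21 gene lists, limma called 0 genes for captan, folpet, anilazine, captafol, dazomet or IPBC. The called shares over all genes were 0.0150%, 0.0902%, 0.241%, 0%, 0.0301% and 0% in that order. With shares so small, 0 calls in the lists do not set the lists apart from other genes. Of 33 NRF2 targets, 1, 0, 3, 3, 0 and 1 had an unadjusted p below 0.05, in the same order. Over all genes that share was 4% for captan, 5.64% for folpet, 6.64% for anilazine, 2.68% for captafol, 4.36% for dazomet and 2.92% for IPBC. The NRF2 target medians against vehicle were 0.13 for captan, 0.06 for folpet, 0.02 for anilazine, -0.02 for captafol, 0.06 for dazomet and 0.02 for IPBC. The 34 genes fixed by name included stress-response genes such as Hmox1, Hspa1b, Atf3 and Cdkn1a, activity genes such as Arc, and Acta2. Over these 34, chlorothalonil gave 9 calls, Arc among them, beside 0.992% of all genes. The other 6 chemicals gave 0 calls, to be read against their small called shares above. At an unadjusted p below 0.05 there were 4 for anilazine, 2 each for folpet and captafol, 1 each for captan and IPBC, and 0 for dazomet. These counts are to be read against the shares of all genes at that unadjusted p. The median half-width of the 95% interval over these genes, before adjustment, was 0.68 for a chemical with 1 library. Rises smaller than that were thus often not detectable, and larger ones could also miss the adjusted threshold. The largest captafol difference over these genes, 1.54, was not called.

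The 6 chemicals with 1 library gave 50 calls between them, with Tm2d3 called for both anilazine and dazomet. Of the 50 calls, 48 were lower than vehicle and 24 fell by more than 2 on the log2 scale. Genes below -2 numbered 32 in captan, 48 in folpet, 42 in anilazine and 37 in dazomet, inside the vehicle range of 7 to 64. Captan called Snhg3 (mm9, chr4:131903929-131909601, minus strand), a host of small nucleolar RNAs. Snhg3 stood at -5.17 in captan, where the other 7 exposed libraries lay between -0.74 and 0.73 and vehicle between -1.03 and 1.11 (difference -5.29 ± 0.55, adjusted p = 7.84e-09). None of the 336 libraries of other chemicals was as low, which the choice of a called gene favours.

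Folpet called 12 genes, and 10 of them fell by more than 2 on the log2 scale. Xpa, a DNA repair factor, stood at -4.33 against a vehicle minimum of -1.62, and Rps19, a ribosomal protein, at -4.01 against -1.79. C3ar1, the receptor for complement C3a that microglia carry, was its 1 rise, at 1.87 against a vehicle maximum of 0.97 (difference 1.83, adjusted p = 0.0296). The microglia list median in folpet, 0.87, was above the vehicle maximum of 0.71, and its part in the C3ar1 value was not tested. Of the 12 genes, 9 were outside the range of all 336 libraries of other chemicals, which the choice of called genes favours.

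Anilazine called 32 genes with a median absolute difference of 1.32, of which 9 fell by more than 2. The largest fall was 1810022K09Rik, at -4.48 against a vehicle minimum of -2.18, and it was followed by Cyp4f16, Dyx1c1, Tm2d3 and Mb21d1. The 1 rise was Fam132a, a secreted protein of the C1q family, at 2.70 against a vehicle maximum of 1.18 (difference 2.79, adjusted p = 0.0422). Moderate falls that were also called included Ddx10, an RNA helicase, at -1.35 against a vehicle minimum of -0.57 (adjusted p = 6.59e-03). All 32 values lay outside the vehicle range, and 18 lay outside that of the other chemicals' libraries. Calling a lone library against vehicle largely fixes the first of these and favours the second, so both are descriptions.

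Dazomet called 4 genes, all falls. Ilkap, a phosphatase that binds integrin-linked kinase, stood at -3.09 against a vehicle minimum of -0.86 (difference -3.06, adjusted p = 4.7e-07). Tm2d3, a membrane protein, stood at -3.83 against -2.13, and it was also low in anilazine, at -2.82. Rarb, a retinoic acid receptor, and Cldn1, a tight junction protein, stood at -2.14 and -2.48 against vehicle minima of -1.31 and -1.37. Each of these calls rests on 1 library and has no replicate check.

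Captan and folpet, which share the reactive group and the dose, were also tested together. Their mean called 4 genes lower and 0 higher (0.0301%): Snhg3, Xpa, Polr2l and Ttc7, of which Ttc7 was named after its value was seen. Snhg3 and Xpa were each low in 1 of the pair only, with 0.73 in folpet for Snhg3 and -0.49 in captan for Xpa. Polr2l, an RNA polymerase subunit, was at -0.43 in captan and -2.45 in folpet, with a vehicle minimum of -0.95. Ttc7 was low in both, at -1.66 in captan and -0.998 in folpet against a vehicle minimum of -0.83, a difference of -1.42 ± 0.28 for their mean (adjusted p = 0.025). With captan alone the count was 2 genes and with folpet alone 12.

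Chemicals given at the same dose were then compared pair by pair, with p-values adjusted over all genes and all 9 pairs. Captan and folpet, which differ by the ring, differed in 3 genes (0.0225%): Snhg3 was lower in captan by -5.90 (95% interval -7.46 to -4.34), and 0610039K10Rik and Zfp108 were higher in captan by 3.66 and 3.22. For the NRF2 targets the difference, captan minus folpet, was 0.21 for Hmox1 (-0.68 to 1.10), 0.10 for Srxn1 (-0.35 to 0.54), 0.19 for Txnrd1 (-0.20 to 0.58) and -0.17 for Sqstm1 (-0.51 to 0.17). These intervals include 0 and differences of some size in either direction, so the pair cannot be said to act alike. Captan and anilazine differed in 1 gene (Snhg3, 0.00752%) and folpet and anilazine in 2 (Gcfc2 and 1700019G24Rik, 0.0150%). For Srxn1 the difference from anilazine was 0.56 for captan (0.11 to 1.00) and 0.46 for folpet (0.01 to 0.90), both short of the threshold after adjustment (p = 0.922 and 1.0).

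At 1 µM, chlorothalonil differed from captafol in 2 genes (0.0150%), from dazomet in 5 (0.0376%) and from IPBC in 3 (0.0225%). Sqstm1 was higher in chlorothalonil than in captafol by 0.78 (95% interval 0.49 to 1.07, adjusted p = 0.022) and than in IPBC by 0.73 (0.44 to 1.03, adjusted p = 0.0462), and the difference from dazomet was 0.72 (0.43 to 1.01, adjusted p = 0.054). Srxn1 was higher than in dazomet by 1.03 (0.64 to 1.41, adjusted p = 0.022), with 0.66 against captafol (0.27 to 1.05) and 0.68 against IPBC (0.30 to 1.07) that did not pass. Nefm was higher than in dazomet by 1.20 (0.72 to 1.68) and than in IPBC by 1.21 (0.73 to 1.69), and Folh1 lower than in captafol by -3.07 and than in dazomet by -3.27. The remaining calls were Ilkap and Tm2d3 against dazomet and Kcnk12, a potassium channel, against IPBC. Without chlorothalonil library 2 these counts were 0, 1 and 0, and without library 1 they were 5, 8 and 4.

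The HSP70 genes did not pass in any pair, although their differences were large. Hspa1b was 2.25 above captafol (95% interval 1.10 to 3.39), 2.07 above dazomet (0.93 to 3.22) and 1.85 above IPBC (0.70 to 2.99), with adjusted p from 0.276 to 0.589. Hmox1 was 0.95, 0.92 and 1.13 above captafol, dazomet and IPBC, with every interval above 0 before adjustment. Among the other 3 chemicals at 1 µM, captafol and dazomet differed in 2 genes (Cldn1 and Ilkap, 0.0150%), dazomet and IPBC in 1 (Ilkap, 0.00752%) and captafol and IPBC in 0 by limma. Captan at 10 µM and captafol at 1 µM share a ring but not a dose, so their values are set side by side only: Srxn1 was at 0.14 and 0.35, Sqstm1 at -0.0044 and 0.09, Hspa1a at -0.29 and 0.57.

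**Figure D5:**
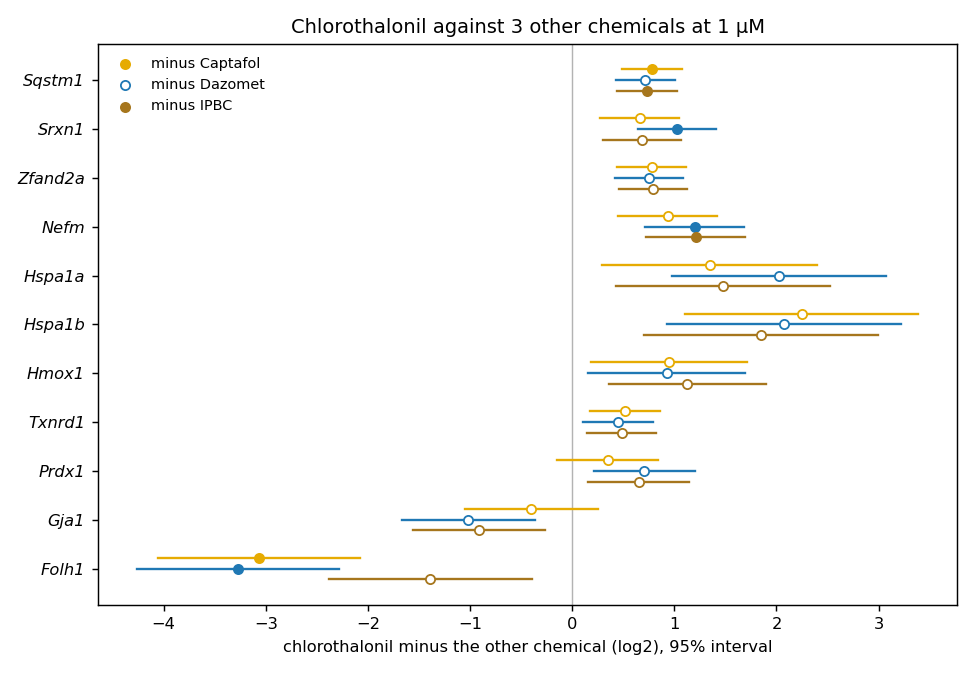
Points give the difference chlorothalonil minus captafol, dazomet or IPBC (log2) for 11 genes, lines the 95% interval before adjustment, and filled points those past the threshold after adjustment over all genes and 9 pairs. Sqstm1, Srxn1, Zfand2a, Nefm, Hspa1a, Hspa1b, Hmox1 and Txnrd1 lie to the right of 0 against all 3 chemicals, and Folh1 lies to the left.

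As a set, the 7 chemicals had no gene that passed. With each chemical as 1 value, limma called 0 of 13304 genes against vehicle and 0 against the other 290 chemicals, with 749 and 484 genes at an unadjusted p below 0.05. The smallest p-values against vehicle belonged to Ubxn2b and Sqstm1. Sqstm1 was above the vehicle mean in 7 of 7 chemicals, by 0.26 ± 0.06 on average (p = 4.76e-05, adjusted p = 0.317), and Ubxn2b, which was named after its values were seen, was below it in 7 of 7, by -0.28 ± 0.06 (adjusted p = 0.317). Gadd45g was above in 7 of 7 by 0.64 ± 0.16 (adjusted p = 0.466). All 3 miss the threshold after adjustment. They have the 3 smallest p-values of this fit, which favours agreement in direction. The share of all genes with such agreement is not given. The fit takes different chemicals and doses as replicates of 1 group. For Sqstm1, chlorothalonil stood at 0.87 as the median of its libraries. The other 6 chemicals lay between -0.0044 and 0.16 for Sqstm1, inside the vehicle range.

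The expression profiles of the 7 chemicals were weakly correlated with each other. Across the 5121 genes of larger spread, Spearman's rho between 2 of the 7 had a median of 0.0114 over 21 pairs (-0.169 to 0.0521). Over all 43956 pairs of chemicals the median was 0.00666, with 0.0659 at the 95th percentile. The rho of 0.115 between the 2 chlorothalonil libraries was above the 95th percentile of 0.0702 for libraries of different chemicals. Captan and captafol had the lowest value, -0.169, and 0.255% of all pairs lay below it. These correlations run across genes, which are not independent replicates, and the libraries share normalization and batch correction.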

How the data were processed

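TagDust, then TopHat against mm9, were the authors' read filter and aligner, and after that ribosomal reads were dropped and RPKM computed per RefSeq gene symbol. The deposited screen table holds log10 RPKM that the authors kept for genes read in nearly all libraries, quantile-normalized, centred on gene medians and freed of the effects of culture and of sequencing run by mixed-model analysis of variance. The labels name no batches, so within-batch values could not be computed, and depth per library is unknown. Values were multiplied to the log2 scale with no pseudocount or further filter. All 8 libraries of the 7 chemicals and the 49 vehicle libraries entered 1 limma fit (limma 3.58.1, R 4.3.3) without a variance trend, since a centred table carries no level. Contrasts were each chemical against vehicle, 9 pairs at matched dose, and captan with folpet against vehicle. Chemical medians were tested in 2 further fits against vehicle and against the other 290 chemicals. Pair p-values were adjusted over genes and pairs together. The scripts were tested on simulated data. The 2 deposited raw count tables hold other chemicals and were not used.

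Named are genes fixed by name, mostly of stress responses (34 of 35 in the table). Also named are up to 4 called genes with the smallest p per list and comparison. The 5 largest called changes in each direction for each chemical, and the 3 largest for each pair, complete the rule. Genes outside this rule, such as Bag3, Hsp90ab1, Ddx10, Polr2l and Zfand2a, were named after their values were seen, and some called genes are not reported here. The members, the 21 gene lists and the tests were chosen with earlier results of these data known. Gene positions are from GENCODE on mm9 and promoter windows from RefSeq on GRCm38.p6, with 9942 of 13304 table genes matched by symbol. Antisense and overlapping genes may share reads, since strand was not stated. Alternatives were a variance trend, genes of larger spread only, a threshold of 0.01, re-centred libraries, array weights, a spread from all replicated groups, adjustment within a pair, and leaving out libraries or chemicals. The comparison of chlorothalonil with other chemicals was added after seeing the data. Figures were drawn with matplotlib 3.10.9.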

Additional observations from a re-analysis of the deposited data

Results flagged for a closer look

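Among the 7 chemicals, 55 values (the genes fixed by name and the list medians) were examined. Each was checked for 1 chemical lying far from the others relative to the range, and 6 stood out, all of them chlorothalonil. Chance flags about 1 in 20 such groups. Chlorothalonil was at 0.29 for the median of the heat shock list, where the nearest chemical was at 0.05. It was at 2.21 for Hspa1b (nearest 0.49), 1.09 for Hmox1 (nearest 0.30), 1.41 for Arc (nearest 0.17), 0.55 for Mdm2 (nearest 0.06) and 0.83 for Trib3, a pseudokinase of the ATF4 response (nearest 0.07). Trib3 did not pass against vehicle (1.07 ± 0.39, adjusted p = 0.222).

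Pairs at a matched dose that differed in a test of the difference itself were captan and folpet in 3 genes, captan and anilazine in 1, folpet and anilazine in 2, captafol and chlorothalonil in 2, captafol and dazomet in 2, chlorothalonil and dazomet in 5, chlorothalonil and IPBC in 3, and dazomet and IPBC in 1.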

How the results depend on the processing

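Under the alternatives, 66 recomputed counts and summaries stayed within 1.5 times the reported value or its spread and 24 moved. With a threshold of 0.01, the genes called were 1 for captan, 6 for folpet, 3 for anilazine, 61 for chlorothalonil, 2 for dazomet and 1 for captan with folpet. With genes of larger spread only, they were 6 for captan, 20 for anilazine and 35 for chlorothalonil, out of 5121 tested. With the spread taken from all replicated groups, captan called 5. Single libraries in place of medians gave 1 gene for the 7 chemicals against vehicle. Folpet against anilazine gave 10 genes when adjusted within the pair and 1 with re-centred libraries. Chlorothalonil against the other chemicals, chosen after seeing the data, gave 13. Leaving out 1 chlorothalonil library gave 37 to 77 genes against vehicle, 0 to 5 against captafol, 1 to 8 against dazomet and 0 to 4 against IPBC. Captan or folpet alone gave 2 to 12, and leaving out 1 chemical gave 0 to 1 for the 7 chemicals against the others (1 without captan). Among named genes, 383 recomputed differences kept their side of the threshold, 155 lost it and 1 reversed: Olfml1 under chlorothalonil was 0.18 without library 2 and -3.97 without library 1. Of 54 named genes called for chlorothalonil, 23 passed with library 2 alone, 18 with library 1 alone and 9 with each. The causes were not tested. No paired analysis was possible because the libraries carry no replicate numbers that groups share. Depth is unknown and 6 chemicals have 1 library.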
